A study of Mus musculus with 5 samples.

Results

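The FGF system of the newborn dorsal lateral geniculate nucleus (dLGN), the relay of the visual thalamus, was followed through 36 genes. They are the fibroblast growth factors (every gene named Fgf and a number), the receptors Fgfr1 to Fgfr4 and Fgfrl1, the inhibitors Spry1 to Spry4 and Spred1 to Spred3, and the ETS transcription factors Etv4 and Etv5. Of the 18193 genes that the platform annotation ties to a probe set of their own, these 36 were taken by symbol and not by value. Earlier results of these data were known when they were chosen. They have 83 of the 45037 probe sets tested, and each gene was represented by its brightest probe set, the one with the highest mean over the 5 arrays. The knockout group consisted of Sema6A-/- mice, which lack both copies of a transmembrane semaphorin, and the control group of Sema6A heterozygous mice, so that the controls also carry 1 disrupted copy and no wild-type group was compared. Both groups had a C57BL/6 background and were taken at postnatal day 0 (P0). There were 2 knockout and 3 control arrays, each from nuclei pooled over pups of several litters, so the p-values measure the spread between pools. The labels name neither the part of Sema6a that was disrupted nor the sex of the pups.

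Secreted FGFs bind receptor tyrosine kinases at the cell surface together with heparan sulfate, and the receptors signal through adaptor proteins to Ras and the ERK kinases. ERK activity induces Etv4 and Etv5 as well as Sprouty and Spred proteins, which damp the same pathway, so the level of these genes is widely used as a readout of FGF signalling. In the developing brain FGFs act as patterning signals, as growth signals for progenitors and glia and as organisers of synapses. A separate branch of the family, Fgf11 to Fgf14, is not secreted and binds voltage-gated sodium channels inside neurons.

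Sema6a itself checked the labels. It read 7.81 and 7.85 on the log2 scale in the knockout arrays and 10.47, 10.65 and 10.39 in the controls, a difference of -2.68 (SE 0.12, limma adjusted p = 0.0236). Without any 1 of the 5 arrays it lay between -2.73 and -2.60, with adjusted p-values from 0.0654 to 0.234. Markers of thalamic relay neurons averaged 10.94 and 11.41 in the knockout arrays and 10.88 to 11.11 in the controls over 14 of 14 genes. No other tissue was measured beside it, so the list mean cannot test the tissue label. Of the 14 genes, 8 were higher and 6 lower in the knockout. Among them, Slc6a4 read 7.98 in knockout replicate 1, 10.60 in replicate 2 and 10.60 to 10.85 in the controls. Gbx2 read 9.02 and 11.22 in the knockout arrays and 6.95 to 8.86 in the controls. Both knockout arrays stood apart from the controls in ways that touch single results below. Microglia markers were higher in 17 of 17 measured genes, with list means of 8.55 and 8.69 in the knockout arrays and 6.89 to 7.03 in the controls. Markers of GABAergic and prethalamic cells averaged 8.33 in knockout replicate 1, 6.02 in knockout replicate 2 and 5.62 to 6.10 in the controls (18 genes measured of 19). Replicate 1 also had a difference of 2.34 between the 3′ and 5′ control probe sets of Gapdh, against 0.77 to 1.33 in the controls. Xist, a transcript of female cells, read 4.10 in replicate 2 and 10.79 or more in the other arrays. The members Fgf13, Fgf16 and Spry3 lie on the X chromosome. No marker reads 0 on this scale, since RMA gives every probe set a value. The part of these cells, of RNA quality and of the sex of the pups in the members' values was not tested. In a bulk sample, fewer cells of a type and less RNA per cell cannot be told apart.

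Adjusted for all probe sets, 0 of the 36 genes passed a p of 0.05 in limma, where 0.104% of all genes were called (0.0879% higher and 0.0165% lower in the knockout). The smallest adjusted p was 0.256. At an unadjusted p under 0.05, 5 genes were higher in the knockout (Fgf1, Fgf11, Fgf17, Fgf18 and Spred1) and Fgf22 was lower. That is 13.9% of the members against 6.9% of all genes on the higher side, and 2.78% against 4.9% on the lower side. Without control replicate 1 the count was 3 higher and 2 lower (4.92% and 3.96% of all genes in the same fit). Without knockout replicate 1 it was 4 and 2 (5.34% and 4.53%), and without knockout replicate 2 it was 6 and 1 (11% and 7.34%). Of the 6 genes, 3 were still called without knockout replicate 1, where Fgf17, Fgf18 and Spred1 were not and Etv5, Fgf15 and Fgfr3 were. Fgf1 and Fgf22 stayed under 0.05 in each of the 13 and 12 alternatives that measured them, and Fgf17 in 4 of 12. Both knockout arrays lay above all controls in 7 genes (19.4%, against 15.8% of all genes) and below them in 3 (8.33%, against 13.9%). The median difference over the 36 genes was 0.08 on the log2 scale, beside 0.01 over all genes, and the members ranged from -0.43 to 0.75. The median of all genes, 0.0085, was 0.013 after a further quantile normalisation and 0.012 after centring of the arrays.

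The knockout pools often disagreed in these genes. The median gap between the knockout arrays was 0.33 over the members and 0.19 over all genes. In 18 of 36 members (50%) the knockout arrays fell on opposite sides of the control mean, against 35.8% of all genes. Relative to the control mean, the median member stood at 0.07 in one knockout array (replicate 1) and at 0.11 in the other.

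**Figure D1:**
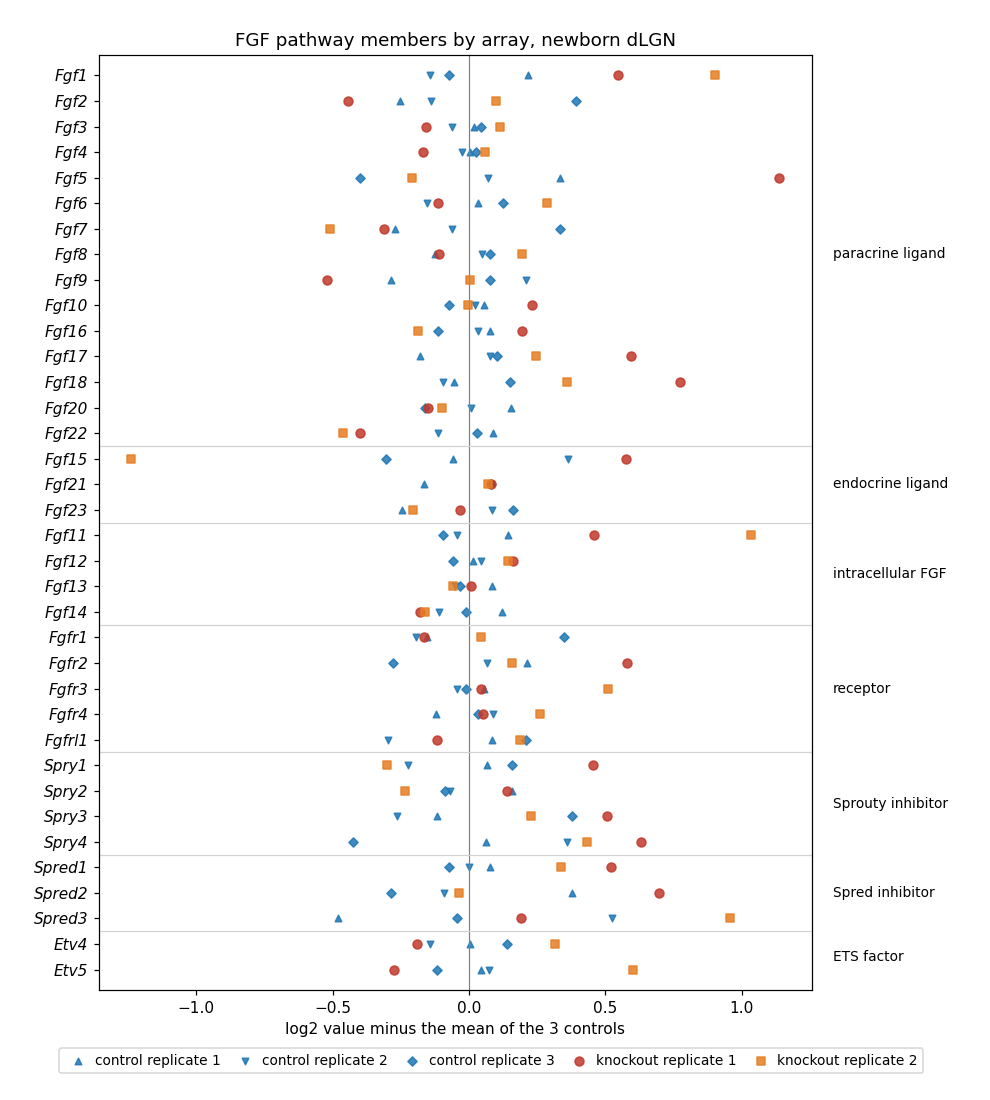
Every member by array: the log2 value of its brightest probe set minus the mean of the 3 controls, with knockout replicate 1 as red circles, knockout replicate 2 as orange squares and the controls in blue. The knockout symbols stand on opposite sides of the zero line in 18 of the 36 genes, and Fgf15 is spread widest, from -1.24 to 0.58.

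Promoters are shown first for Spred1, the inhibitor with the smallest p, for its relative Spred2, and for Fgf18, a secreted ligand whose knockout arrays both lay above the controls. The RefSeq promoter table (GRCm38.p6) holds 26 of the 36 genes. Each line gives the 250 bases before the annotated transcription start, 5′ to 3′ on the gene's strand. Capitals mark the motif CGGAAG, a core of the sites that ETS factors such as Etv4 and Etv5 bind, or its reverse complement CTTCCG. Spred1 lies on the plus strand at chr2:117120821-117121070, Spred2 on the plus strand at chr11:19924192-19924441 and Fgf18 on the minus strand at chr11:33147401-33147650.
Spred1: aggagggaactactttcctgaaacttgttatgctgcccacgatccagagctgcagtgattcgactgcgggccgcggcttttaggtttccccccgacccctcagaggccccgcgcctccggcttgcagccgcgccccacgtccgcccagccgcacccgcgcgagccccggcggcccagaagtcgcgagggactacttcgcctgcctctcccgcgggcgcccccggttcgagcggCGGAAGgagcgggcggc
Spred2: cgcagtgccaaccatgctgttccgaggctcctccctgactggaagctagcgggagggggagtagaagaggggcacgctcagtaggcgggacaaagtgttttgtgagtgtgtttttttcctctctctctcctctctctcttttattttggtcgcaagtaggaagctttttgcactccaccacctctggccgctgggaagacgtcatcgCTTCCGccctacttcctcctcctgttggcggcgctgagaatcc
Fgf18: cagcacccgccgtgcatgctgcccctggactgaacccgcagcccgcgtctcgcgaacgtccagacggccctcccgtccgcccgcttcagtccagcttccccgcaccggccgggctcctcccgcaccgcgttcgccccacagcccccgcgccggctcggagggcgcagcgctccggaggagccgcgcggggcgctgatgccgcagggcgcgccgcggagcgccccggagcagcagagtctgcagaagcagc
The motif begins 17 bases before the start in Spred1 and 43 bases before it in Spred2, there on the opposite strand. The Fgf18 window does not hold these letters. Searched on both strands, CGGAAG occurs in 6 of the 34 promoters of members (17.6%) and in 13.6% of all 32851 promoters of the same length. Beside Spred1 and Spred2, the members' promoters with the motif belong to Fgf12, Fgf23 and Fgfrl1. A match describes the letters and is not evidence of binding.

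Among the 15 paracrine ligands, which act on neighbouring cells, 3 were higher and 1 was lower at an unadjusted p under 0.05. That is 20% and 6.67%, against 6.9% and 4.9% of all genes, and the median difference was 0.00. Fgf1, a ligand that binds all FGF receptors, read 6.98 and 7.33 in the knockout arrays and 6.65, 6.29 and 6.35 in the controls. Both knockout arrays lay above every control, by a mean of 0.73 (SE 0.17, unadjusted p = 0.00712, limma adjusted p = 0.256). Its dimmer probe sets gave 0.26 and 0.40, the latter with knockout replicate 1 below the control mean. The annotated span of Fgf1 overlaps the protein-coding genes Arhgap26 and Gm5820, so its signal may not be its own alone, and Fgf1 and Spry4 lie on the same chromosome as Sema6a.

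Fgf18 and Fgf17 belong with Fgf8 to 1 subfamily of ligands known for patterning the brain. Fgf18 read 8.01 and 7.59 in the knockout arrays and 7.17, 7.13 and 7.38 in the controls. The groups did not overlap, and the difference was 0.57 (SE 0.17, unadjusted p = 0.0166, limma adjusted p = 0.335). Without knockout replicate 1 it was 0.36 (limma unadjusted p = 0.0784, adjusted p = 0.638). Fgf17 read 5.43 and 5.08 against 4.66, 4.91 and 4.94, a difference of 0.42 (SE 0.16, limma adjusted p = 0.436), and its other, dimmer probe set gave -0.13. Without knockout replicate 1 the difference of Fgf17 was 0.24 (limma unadjusted p = 0.218, adjusted p = 0.825). The higher of both knockout values was that of replicate 1 in each gene. Fgf8 gave 0.04 with a 95% interval from -0.32 to 0.40, and its knockout values of 5.10 and 5.41 enclosed 2 of the 3 controls.

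On the lower side stood Fgf22, a ligand that organises presynaptic terminals. It read 5.62 and 5.56 in the knockout arrays and 6.11, 5.91 and 6.05 in the controls. Both knockout values were below every control and close to each other, with a difference of -0.43 (SE 0.12, unadjusted p = 0.0111, limma adjusted p = 0.298). Its other probe set gave -0.29. Fgf7, a ligand of the epithelial form of Fgfr2 that also acts at synapses, read 4.11 and 3.92 against 4.16, 4.36 and 4.76 (difference -0.41, limma adjusted p = 0.531). Its other probe set gave 0.04, and without control replicate 3 the brightest one gave -0.24. The levels of Fgf7, Fgf22 and Fgf17 were below the median of all probe sets, 6.39, where RMA compresses differences. Meningeal and fibroblast markers, cells in which Fgf7 is known, averaged 6.27 and 6.43 in the knockout arrays and 6.33 to 7.65 in the controls, highest in control replicate 3 as Fgf7 was. Their part in the Fgf7 values was not tested.

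Fgf9, a ligand secreted by neurons, was the paracrine ligand besides Fgf1 and Fgf18 whose mean reached the median level. It read 8.54 and 9.07 in the knockout arrays and 8.77, 9.27 and 9.14 in the controls, a difference of -0.26 (95% interval -0.82 to 0.30), and its other probe set gave 0.01. For Fgf5 knockout replicate 1 gave 6.49, above the control range of 4.95 to 5.68, while replicate 2 gave 5.14, within it, so the difference of 0.47 came from 1 array. The remaining ligands of this class, Fgf2, Fgf3, Fgf4, Fgf6, Fgf10, Fgf16 and Fgf20, all had means below the median level. Their differences lay between -0.17 and 0.11, and the smallest adjusted p among them was 0.765.

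The 3 endocrine ligands gave no call. Fgf15, expressed by progenitors of the diencephalon and midbrain, had control values of 8.47, 8.89 and 8.23, with knockout replicate 1 at 9.11 and replicate 2 at 7.29. The knockout arrays lay on either side of all controls, 1.82 apart. The mean difference of -0.33 had a 95% interval from -1.68 to 1.02 (limma adjusted p = 0.853), and without knockout replicate 2 it was 0.58. In the array where Fgf15 was high, the median of the GABAergic and prethalamic markers stood 2.60 above the control mean, and in the array where it was low it stood 0.12 above it. The part of these cells in the Fgf15 values was not tested. Fgf21 and Fgf23 were dim, with differences of 0.08 and -0.12.

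Of the 4 intracellular FGFs, Fgf11 was higher at an unadjusted p under 0.05, where 6.9% of all genes were. It read 6.81 and 7.38 in the knockout arrays and 6.49, 6.30 and 6.25 in the controls. The groups did not overlap, and the difference of 0.75 had an SE of 0.20 (unadjusted p = 0.0109, limma adjusted p = 0.298). Its other, dimmer probe set gave -0.15, the mean of both gave 0.30 (limma unadjusted p = 0.0774, adjusted p = 0.438), and without knockout replicate 2 the brightest gave 0.46. Fgf12, Fgf13 and Fgf14 regulate sodium channel gating and trafficking in neurons, and Fgf13 also binds microtubules.

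Fgf13 read 12.96 and 12.89 in the knockout arrays and 13.03, 12.90 and 12.91 in the controls, a difference of -0.03 with a 95% interval from -0.30 to 0.24. Its second probe set gave -0.53 (SE 0.14, unadjusted p = 0.0109, limma adjusted p = 0.298), with 7.51 and 7.23 in the knockout arrays and 7.77 to 7.99 in the controls. The probe sets of Fgf13 thus differed in size while sharing their sign. Fgf12 had a difference of 0.15 and Fgf14 of -0.17, each without overlap between the groups and with limma adjusted p-values of 0.637 and 0.641. Of all genes, 15.8% had both knockout arrays above the controls and 13.9% both below. The other probe sets of Fgf12, with means of 9.91 and 9.67 beside 10.10, gave 0.01 and -0.10 with overlap. At the dimmer probe sets of Fgf14 the difference ran from -0.78 to 0.42.

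All 5 receptors had overlapping groups, with 0 of 5 past either threshold in either direction (unadjusted or adjusted, limma). Fgfr1, the main FGF receptor of neurons and progenitors, read 7.89 and 8.10 in the knockout arrays and 7.90, 7.85 and 8.40 in the controls. The difference was -0.06 with a 95% interval from -0.57 to 0.45, and it was 0.12 without control replicate 3 and 0.05 without knockout replicate 1. At a second probe set, chosen here after its values were seen, Fgfr1 read 7.63 and 7.48 against 7.15, 7.07 and 7.03, a difference of 0.47 without overlap (unadjusted p = 0.00686, limma adjusted p = 0.254). Its remaining, dim probe set gave -0.23, with 5.27 and 5.98 against 5.72 to 5.94. The brightest probe set of Fgfr1 carries the suffix _s_at, which marks probes shared by several transcripts, as do those of Fgfr2 and Spred1.

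Fgfr2 and Fgfr3 are receptors of radial glia, astrocytes and oligodendrocyte precursors. Fgfr2 read 10.58 and 10.16 in the knockout arrays and 10.21, 10.07 and 9.72 in the controls (difference 0.37, 95% interval -0.15 to 0.88, limma adjusted p = 0.574). Fgfr3 read 9.52 and 9.98 against 9.53, 9.43 and 9.46 (difference 0.28, 95% interval -0.13 to 0.69, limma adjusted p = 0.598). For each of them 1 knockout array, replicate 1 for Fgfr2 and replicate 2 for Fgfr3, lay above all controls and the other did not. Dim probe sets gave 0.33 and -0.20 for Fgfr2 and -0.34 for Fgfr3. Radial glia and astrocyte markers averaged 10.70 and 10.74 in the knockout arrays and 10.55 to 10.88 in the controls. Markers of the oligodendrocyte lineage averaged 8.93 in knockout replicate 1, 9.14 in replicate 2 and 8.68 to 8.78 in the controls, with 9 of 11 measured genes higher (12 listed), and their part in the receptor values was not tested.

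Fgfr4 was dim, at 5.06 and 5.27 in the knockout arrays and 4.89, 5.10 and 5.04 in the controls, with a difference of 0.16 (95% interval -0.17 to 0.48). Fgfrl1, a receptor without a kinase domain, gave 0.03 with a 95% interval from -0.45 to 0.52. The upper bounds of the 5 receptors' intervals ran from 0.45 to 0.88 on the log2 scale.

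**Figure D2:**
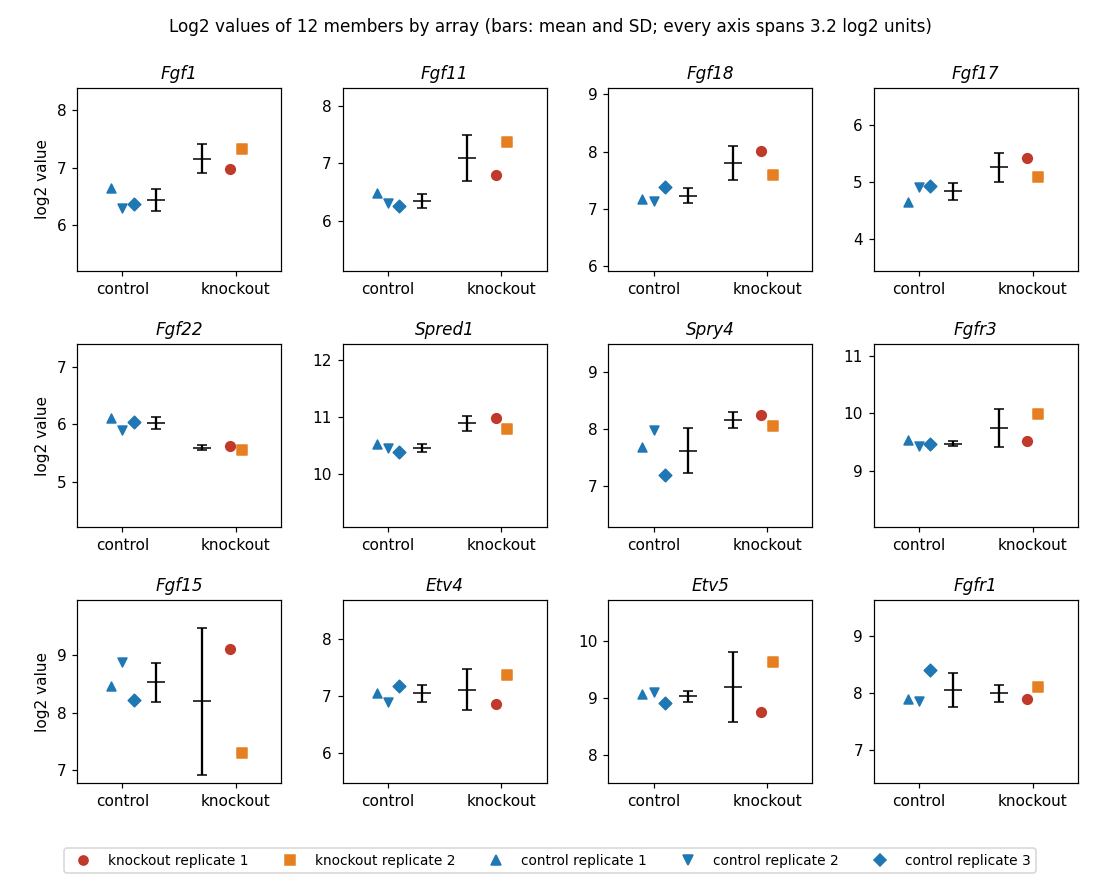
Log2 values of 12 members by array, controls in blue and knockouts in red (replicate 1) and orange (replicate 2), with the mean and SD of each group as bars and the same span on every axis. Fgf1, Fgf11, Fgf17, Fgf18, Spred1 and Spry4 have both knockout arrays above the controls and Fgf22 has both below, while in Fgf15, Etv4 and Etv5 the knockout arrays enclose the controls.

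Of the 7 feedback inhibitors, 1 was higher and 0 were lower at an unadjusted p under 0.05, where 6.9% and 4.9% of all genes were. Spred1 encodes a membrane protein that brings neurofibromin to Ras and so limits ERK activation. It read 10.98 and 10.80 in the knockout arrays and 10.53, 10.46 and 10.38 in the controls, with no overlap and a difference of 0.43 (SE 0.12, unadjusted p = 0.0128, limma adjusted p = 0.311). All 6 Spred1 probe sets at or above the median level had positive differences, from 0.24 to 0.47, whereas its dimmer ones gave -0.29 and 0.10. The mean over all 8 gave 0.21 (limma unadjusted p = 0.108, adjusted p = 0.486), and without knockout replicate 1 the brightest gave 0.34 (limma unadjusted p = 0.0564, adjusted p = 0.587). These probe sets read the same gene in the same arrays and are not independent.

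The other Spred genes were less even. Spred2 read 9.57 and 8.84 in the knockout arrays and 9.25, 8.78 and 8.59 in the controls, a difference of 0.33 (95% interval -0.40 to 1.06) in which only knockout replicate 1 exceeded the controls. Spred3 read 7.44 and 8.21 against 6.77, 7.78 and 7.21, a difference of 0.57 (95% interval -0.33 to 1.48, limma adjusted p = 0.616). The control values of Spred3 span more than its difference. Its annotated span overlaps the protein-coding gene Ggn.

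Sprouty proteins block the step from the receptor to Ras. Spry4 read 8.25 and 8.05 in the knockout arrays and 7.68, 7.98 and 7.20 in the controls, a difference of 0.53 without overlap (SE 0.24, unadjusted p = 0.0767, limma adjusted p = 0.504). Its second probe set read 7.71 in both knockout arrays and 6.98 to 7.39 in the controls (difference 0.49, unadjusted p = 0.0207, limma adjusted p = 0.356), and the equal knockout values narrow its spread. Spry3 read 6.74 and 6.46 against 6.12, 5.97 and 6.61 (difference 0.37, limma adjusted p = 0.603). Spry1 differed by 0.08 and Spry2 by -0.05, and in both genes knockout replicate 1 was above and replicate 2 below the control mean.

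Etv4 and Etv5, the ETS factors induced by FGF signalling, showed no shared direction between the knockout pools. Etv5 read 8.76 and 9.63 in the knockout arrays and 9.07, 9.10 and 8.91 in the controls. Etv4 read 6.86 and 7.36 against 7.05, 6.91 and 7.19. In each gene knockout replicate 1 was below all controls and replicate 2 above them. The mean differences were 0.16 for Etv5 (95% interval -0.50 to 0.83, limma adjusted p = 0.852) and 0.06 for Etv4 (95% interval -0.41 to 0.53, limma adjusted p = 0.927), and without knockout replicate 2 they were -0.27 and -0.19. Of the dim probe sets of Etv5, one gave 0.04, with the knockout arrays on opposite sides of the control mean. The other, chosen after its values were seen, read 6.36 and 6.43 in the knockout arrays and 5.94 to 6.08 in the controls (difference 0.39, unadjusted p = 0.0134, limma adjusted p = 0.315). Spry1, Spry2 and Spred2 had the opposite pattern, with knockout replicate 1 above the control mean and replicate 2 below it.

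Probe sets of 1 gene often disagreed. Counted over all 83 probe sets of the members, 9 were higher and 2 lower at an unadjusted p under 0.05, against 5.16% and 5.99% of all probe sets, and 0 passed the adjusted threshold, which 0.0733% of all probe sets did (0.0644% higher and 0.00888% lower). Of the 9 members with more than 1 probe set at or above the median level, 5 had a single sign (Fgf13, Fgfrl1, Spry4, Spred1 and Spred2) and 4 had both (Fgf9, Fgf12, Fgf14 and Fgfr1). Of the 36 genes, 20 had a brightest probe set at or above that level and 16 lay below it. The annotated spans of Fgf2, Fgf7 and Fgf14 overlap the protein-coding genes Nudt6, Fam227b and Itgbl1, which leaves their signal uncertain as it does for Fgf1 and Spred3. The level of a probe set also depends on its probes, so it is only a rough guide to abundance.

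**Figure D3:**
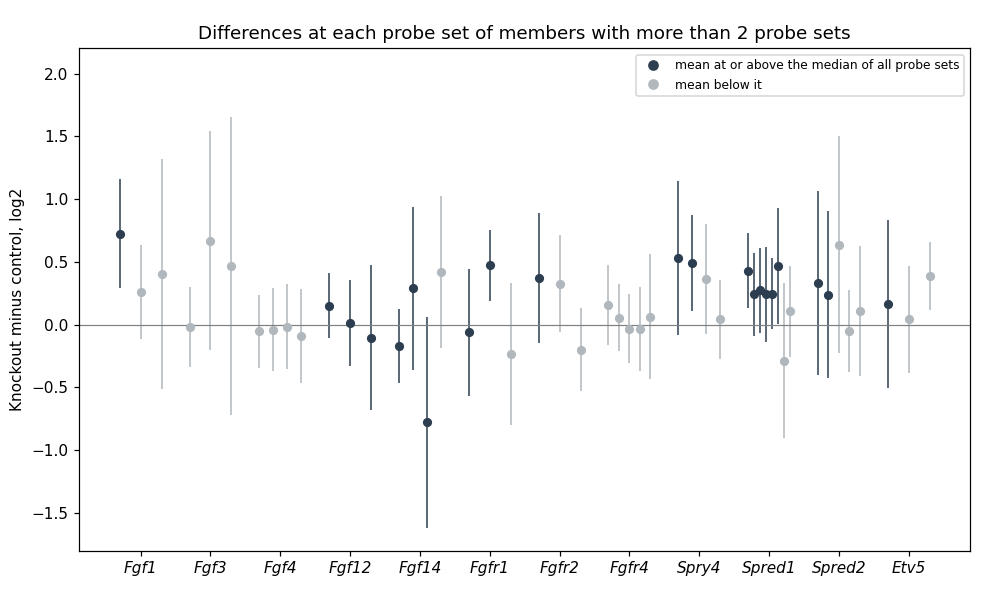
Knockout minus control difference on the log2 scale, with the 95% interval of limma, at each probe set of the members with more than 2 of them, ordered within a gene from the brightest to the dimmest. Dark points have a mean at or above the median of all probe sets, 6.39, and the 6 dark points of Spred1 lie between 0.24 and 0.47 while those of Fgf14 run from -0.78 to 0.29.

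Other genes of the pathway were read from 4 lists, chosen by role, of which 62 of 74 genes had a probe set of their own. Over these lists 0 genes passed the adjusted threshold in limma, with 6 higher and 8 lower at an unadjusted p under 0.05 against the 6.9% and 4.9% of all genes. The median difference was -0.03. In the list of co-receptors, binding proteins and heparan sulfate genes, 4 of 21 measured (19%) were higher and 3 (14.3%) lower on the unadjusted basis. Flrt1 and Flrt3, transmembrane proteins that bind FGF receptors, had differences of 1.61 (limma adjusted p = 0.138) and 0.88 (0.156), their relative Flrt2 of 0.59 (0.213), and Sdc2, a heparan sulfate proteoglycan, of 0.71 (limma adjusted p = 0.195). Sdc2 read 11.16 and 10.91 in the knockout arrays and 10.22, 10.29 and 10.46 in the controls, without overlap. Klb, the co-receptor of endocrine FGFs, was dim and gave -0.60, with 4.36 and 4.49 against 5.03, 5.10 and 4.92 (limma adjusted p = 0.192). Hs6st2 read 12.70 and 11.86 in the knockout arrays and 12.95, 12.94 and 12.91 in the controls (difference -0.66, limma adjusted p = 0.431). Hs6st3 was dim and gave -0.31 (limma adjusted p = 0.417), also with both knockout arrays below every control.

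Some heparan sulfate genes varied more between the knockout pools than any member. Sulf1, an extracellular enzyme that removes sulfate groups from heparan sulfate, had a control range of 8.30 to 8.99, with knockout replicate 1 inside it at 8.73 and replicate 2 at 11.01. Gpc4, a heparan sulfate proteoglycan of the glypican family, read 11.21 and 9.28 against 11.04 to 11.78. Both were chosen after their values were seen, as were Flrt2, Hs6st2, Hs6st3, Rasa1, Dusp6 and Dusp5.

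Among the targets and other feedback genes, 1 of 20 measured was higher (5%) and 4 were lower (20%) at an unadjusted p under 0.05. The shares of all genes were 6.9% and 4.9%. Dusp4, a phosphatase of ERK and related kinases, read 10.13 and 9.94 in the knockout arrays and 10.72, 10.77 and 10.71 in the controls, a difference of -0.70 (SE 0.11, limma adjusted p = 0.140). Myc, a transcription factor that promotes growth, gave -0.73 (limma adjusted p = 0.287) and Ier3, an immediate early gene, -0.67 (0.320), each with both knockout arrays below every control. Rasa1 gave -0.34 (limma adjusted p = 0.409), also with both below. Il17rd, a membrane antagonist of FGF receptors, gave 0.38 (limma adjusted p = 0.402) with both above. Dusp6, the ERK phosphatase most used as a marker of FGF signalling, read 10.26 and 10.37 against 10.41, 10.37 and 10.40, a difference of -0.08 with a 95% interval from -0.34 to 0.18. In Dusp5, another ERK phosphatase, only knockout replicate 1 left the control range of 8.97 to 9.76, at 6.93, and replicate 2 stood at 9.14.

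The adaptors and kinases between receptor and ERK gave 0 of 13 at an unadjusted p under 0.05 in limma, and 0 adjusted. Their differences ran from -0.28 to 0.29. The genes with the smallest p were the MEK kinase Map2k1 (0.20), the adaptor Gab1 (0.18), the RAF kinase Braf (0.29) and the MEK kinase Map2k2 (-0.28), with adjusted p-values from 0.544 to 0.617. Genes of sodium channels, pore-forming and auxiliary subunits together, had 1 higher and 1 lower of 8 on the unadjusted basis. That was 12.5% each way, against 6.9% and 4.9% of all genes. Both called genes encode auxiliary subunits and not the channel itself. Scn3b read 12.33 and 12.10 against 11.77, 11.49 and 11.28 (difference 0.70, limma adjusted p = 0.276) and Scn2b gave -0.32 (limma adjusted p = 0.429). The pore-forming channel genes with the smallest p, Scn9a and Scn3a, gave 0.29 and 0.18 (limma adjusted p = 0.486 and 0.719) and were not called.

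**Figure D4:**
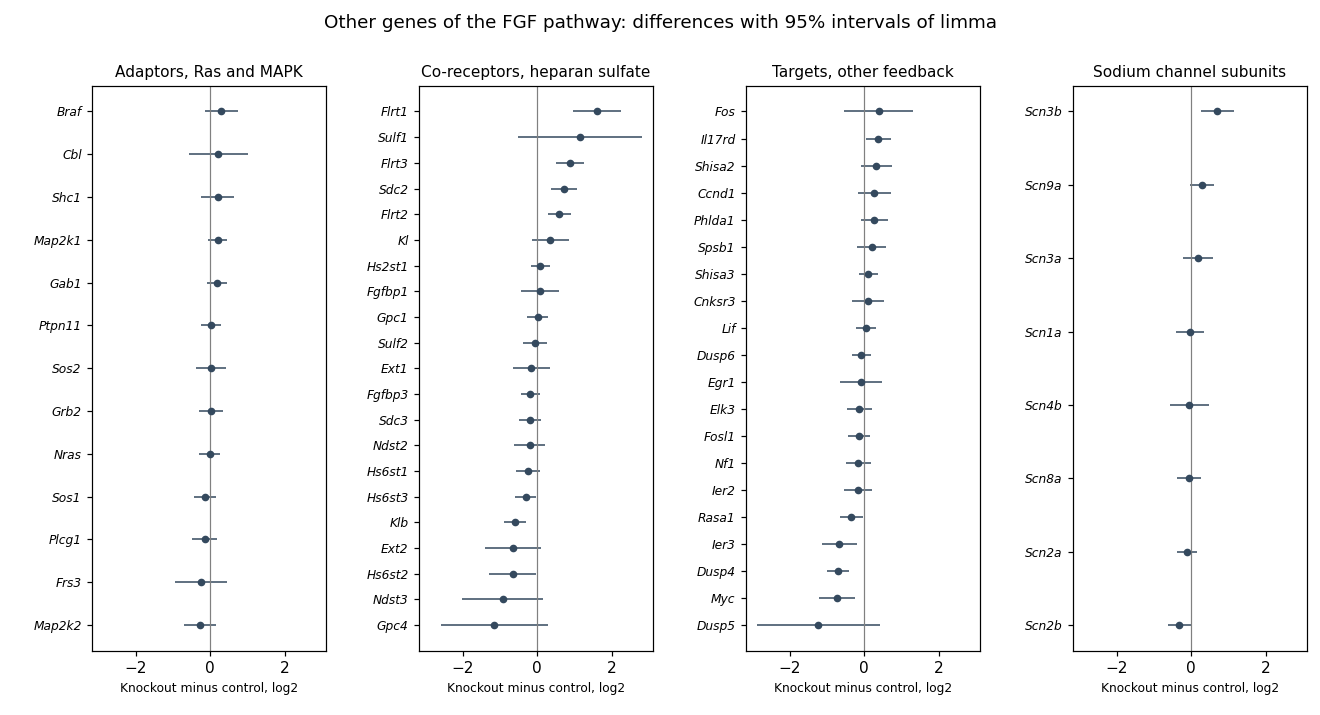
Knockout minus control difference on the log2 scale, with the 95% interval of limma, for 62 other genes of the FGF pathway in 4 lists, sorted by size. The intervals of Flrt1, Flrt2, Flrt3, Sdc2, Il17rd and Scn3b lie above 0. Those of Dusp4, Myc, Ier3, Rasa1, Klb, Hs6st2, Hs6st3 and Scn2b lie below it. Every interval of the adaptors and kinases includes 0, and 0 of the 62 genes passed the adjusted threshold.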

How the data were processed

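Total RNA of 5 pools of dLGN tissue was amplified and hybridised to Affymetrix arrays, per the labels' protocols. Each deposited value is the log2 expression of a probe set, computed by the authors through RMA (per the submitters' processing notes), with version and settings not given in the sources used here. RMA equalises the arrays' distributions and compresses differences near background.

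Groups came from the labels. Of 45101 probe sets, 64 array controls were left out. The platform annotation gave 34945 of the others 1 gene, 932 several and 9160 none. No member's symbol was found among the several. Array medians lay between 6.39 and 6.42 and correlations between arrays between 0.985 and 0.995.

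The knockout was compared with the control in limma (lmFit and eBayes; version 3.58.1 under R 4.3.3). The model held genotype alone, tests were two-sided, and p-values were adjusted by Benjamini-Hochberg across the full set of 45037. All values, SEs, 95% intervals and p-values come from this fit, which was tested on simulated data. With 2 pools against 3, an exact permutation test could not give a p below 0.1. Members and lists were chosen with earlier results of these data known, so no list was tested. Full values are given for the 12 members with the smallest p and for Fgfr1 to Fgfr4, Fgf15, Etv4 and Etv5. From each other list up to 4 genes with the smallest p are named, many by their difference alone. Alternatives tried were a block for the replicate number, quantile normalisation, centring, omission of dim probe sets, an intensity trend, a robust prior, array weights, each array left out and a gene's mean over its probe sets.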

Additional observations from a re-analysis of the deposited data

Results flagged for a closer look

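In data that the comparison did not use, the control probe sets of the array, knockout replicate 1 had a log2 difference of 2.34 between the 3′ and 5′ ends of Gapdh, above the level in the controls. The highest control array gave 1.33 and knockout replicate 2 gave 0.96. The same difference for Actb was 1.91 in knockout replicate 1 and at most 1.45 in the controls. Its part in the gap between the knockout arrays at Fgf15, Fgf5 or Etv5 was not tested.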

How the results depend on the processing

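Under all 13 alternatives 0 of the members and 0 of the other pathway genes passed the adjusted threshold in limma. Of 216 values of the 17 named members under an alternative, 207 kept their sign and stayed short of the threshold, and 9 turned their sign. Fgfr1 gave 0.12 with the replicate number as a block and without control replicate 3, 0.05 without knockout replicate 1 and 0.059 as the mean of its probe sets, and Fgfr3 gave -0.032 as that mean. Leaving out each array in turn gave -0.16 to 0.12 for Fgfr1, -1.24 to 0.58 for Fgf15, -0.19 to 0.31 for Etv4 and -0.27 to 0.60 for Etv5, where the signs turned without knockout replicate 2 for the last 3 and, for Etv4 (-0.0098), without control replicate 2 too. The cause was not tested. At an unadjusted p under 0.05, 3 members were higher and 2 lower when a gene's probe sets were averaged (6.45% and 6.67% of all genes), where Fgf11, Fgf17 and Spred1 were no longer called and Spry4 and Fgf13 were. Without dim probe sets 0 were lower among the 20 members measured, which no longer held Fgf22. With each array left out in turn, 3 to 6 were higher and 1 to 2 lower, while the share of all genes ran from 4.86% to 11% and from 3.12% to 7.34%, the members' median lay between 0.044 and 0.12, and Sema6a gave -2.73 to -2.60 with adjusted p-values from 0.0654 to 0.234, past the threshold in none of them, with fewer arrays. The median was 0.16 without dim probe sets and 0.12 with the replicate block, where Sema6a gave -2.73 (limma adjusted p = 0.298). The labels do not say whether same-numbered pools share more than a number. Deviations from the group means correlated at 0.15 for the pools numbered 1 and 0.21 for those numbered 2. With 2 knockout arrays their deviations mirror each other, so these values cannot settle a pairing. With the block 6 members were higher and 1 lower (6.72% and 4% of all genes). Of these, 5 were shared with the fit without it (Fgf17 was no longer called, Spry3 and Spred3 were). Fgf17 also lost its call with quantile normalisation and with an intensity trend. The number of arrays and the dim signal of 16 members limit what could be resolved; where leaving out a knockout array leaves 1, it is assumed to vary like the controls.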
